A study of Mus musculus with 60 samples.

Results

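Inflammatory monocytes and macrophages were followed in mouse fat through 10 genes that mark them: Ly6c2, Plac8, Fcgr1, Lyz2, Cybb, Ctss, Csf1r, Adgre1, Cd68 and Ptprc. The genes were taken by symbol from a table of 55011 genes, 10 rows in all, and read across the 52 libraries of whole fat. Of these libraries, 38 came from brown adipose tissue (BAT) and 14 from subcutaneous adipose tissue (SAT), in 16 groups, all from males aged 8 weeks. The study asked how fat changes when regulatory T cells (Treg cells) are removed, per its title and labels.

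Treg cells were targeted in the B6.Foxp3.DTR strain, in which the Foxp3 locus drives the diphtheria toxin receptor, so that diphtheria toxin (DT) kills cells that express Foxp3. The receptor is expressed in Foxp3+ cells of every organ, so the model does not confine the loss to fat. DTR+ mice were compared with DTR- mice, and both genotypes received DT. At D4 there were 4 DTR+ and 4 DTR- libraries from each of BAT and SAT, and at D3 there were 3 of each. What D3 and D4 count from is not given in the labels, and the D3 titles also carry PBS. Further BAT groups of 3 libraries each were DTR+ and DTR- mice given DT with CL, an agent the labels do not spell out, and DTR- mice given DT with PBS. A pair of BAT groups, also with 3 libraries each, were DTR+ mice given DT with an anti-IFNy antibody (aIFNg) or with an isotype control antibody. Treg cells were targeted by other means in C57BL/6J wild-type mice, which received the anti-CD25 antibody PC61 or an isotype control antibody. The last BAT group came from 4 °C. Its titles call it WT, its genotype label is DTR-, and its treatment label names PBS without DT.

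Monocytes leave the bone marrow and the blood, enter inflamed tissue through chemokine receptors such as Ccr2, and mature there into macrophages. In the mouse, high surface Ly6C marks the inflammatory subset, and interferon-gamma induces many of its genes, among them the high-affinity Fc receptor. Healthy fat holds resident macrophages that depend on colony stimulating factor 1, and Treg cells of fat are known for holding inflammation in check.

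By role, Ly6c2 and Plac8 are used as markers of monocytes fresh from the blood, though not of them alone. Fcgr1 encodes CD64, the high-affinity receptor for IgG. Cybb encodes the catalytic subunit of the phagocyte NADPH oxidase, Ctss a lysosomal cysteine protease that trims the invariant chain of MHC class II, and Lyz2 the lysozyme of myeloid cells. Csf1r is the receptor for colony stimulating factor 1, and Adgre1 (F4/80) and Cd68 are the usual macrophage markers. Ptprc encodes CD45, present on nearly every leukocyte, so it does not separate myeloid cells from lymphocytes.

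The promoters of 3 members are shown because their genes carried the changes described below and because their sequences hold motifs for factors that act in these cells. RefSeq (GRCm38.p6) gave 300 bases for 8 of the 10 members, 250 before the annotated start and 50 after it. The windows were searched on both strands for GAAANNGAA (the interferon-stimulated response core) and GAGGAAGT (a site of the myeloid factor PU.1). Capitals mark the matches. Ctss (chr3:95526536-95526835, plus strand) holds GAAANNGAA 21 bases before its start and GAGGAAGT, on the opposite strand, 2 bases before it. Cybb (chrX:9469275-9469574, minus strand) holds GAAANNGAA 167, 123 and 29 bases before its start, and the 2 farther matches lie on the opposite strand. Ly6c2 (chr15:75111922-75112221, minus strand) holds GAGGAAGT 108 bases before its start and again after it.
Ctss: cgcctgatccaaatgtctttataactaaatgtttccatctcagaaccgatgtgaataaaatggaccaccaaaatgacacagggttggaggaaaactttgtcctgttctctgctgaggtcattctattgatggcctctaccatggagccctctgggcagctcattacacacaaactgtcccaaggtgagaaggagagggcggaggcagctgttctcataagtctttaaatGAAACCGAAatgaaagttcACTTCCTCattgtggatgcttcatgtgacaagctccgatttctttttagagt
Cybb: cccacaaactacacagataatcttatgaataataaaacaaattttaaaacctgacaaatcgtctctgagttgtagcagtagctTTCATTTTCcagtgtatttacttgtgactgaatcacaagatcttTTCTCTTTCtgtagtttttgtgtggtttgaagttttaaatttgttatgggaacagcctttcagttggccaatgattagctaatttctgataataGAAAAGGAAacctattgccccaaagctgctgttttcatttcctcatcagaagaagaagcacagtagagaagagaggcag
Ly6c2: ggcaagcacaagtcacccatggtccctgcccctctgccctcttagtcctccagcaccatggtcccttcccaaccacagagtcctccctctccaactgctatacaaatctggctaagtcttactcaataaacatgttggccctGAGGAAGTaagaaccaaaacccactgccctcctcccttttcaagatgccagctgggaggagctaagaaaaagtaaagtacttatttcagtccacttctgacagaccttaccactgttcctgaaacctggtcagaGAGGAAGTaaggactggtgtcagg
Of all 32851 promoter windows of this length, 8.56% held GAAANNGAA and 3.2% held GAGGAAGT. None of these letters were found in the windows of Plac8, Fcgr1, Lyz2, Cd68 or Ptprc. A match is a run of letters and was not measured as a binding site here.

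The whole-fat libraries held between 3007241 and 9673342 counts assigned to genes. Levels are given below as CPM, counts scaled to a common library total and not corrected for gene length. Foxp3 counts were too low to check the depletion. In BAT, Foxp3 had 0 counts in all 4 D4 DTR+ libraries and 2, 0, 0 and 0 counts in the D4 DTR- libraries, and at D3 0, 1 and 0 counts in DTR+ and 2, 2 and 0 in DTR- libraries. In SAT it had 0, 3, 0 and 0 counts in the D4 DTR+ libraries and 2, 0, 29 and 0 in the D4 DTR- libraries, and at D3 4, 2 and 0 counts in DTR+ and 7, 0 and 1 in DTR- libraries. Ucp1, the uncoupling protein of brown fat, averaged 4980 ± 723 CPM in D4 DTR- BAT against 31.9 ± 36.6 CPM in D4 DTR- SAT (SD, n = 4 each). Some libraries stood apart by markers of other tissue. The 6 skeletal muscle genes summed to 5450 CPM in D4 DTR+ BAT replicate 1 and to 6290 CPM in PC61 replicate 2. The 11 T and NK cell genes summed to 234 CPM in D4 DTR- SAT replicate 3 and to 148 CPM in PBS DTR- BAT replicate 3, against at most 86.9 CPM in CL DTR+ BAT. The labels do not say whether replicates are separate animals, so the p-values below measure the spread between these libraries, which may be technical.

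No member was at 0 in any of the 52 libraries. Per kilobase of annotated exon, Lyz2 was the highest member in D4 DTR+ BAT at 464 CPM per kb, followed by Ctss at 199 and Cd68 at 65.6. The other members ran from 11.1 CPM per kb for Adgre1 to 1.95 CPM per kb for Ptprc. With groups ordered by mean, SAT groups took the top place for 9 of the members, and CL DTR+ BAT took it for Ctss. Lyz2 spanned 38.8 to 1320 CPM over all libraries, with the isotype-treated wild-type BAT at the bottom (42.8 CPM on average) and D4 DTR- SAT at the top (1090 CPM). Most neighbours in these orders were not separated: for each member, 13 to 15 of the 15 neighbouring pairs of groups had overlapping ranges. Ly6c2 shares 97.6% of its best-aligned transcript bases with Ly6c1, and Lyz2 95.8% with Lyz1. How reads that fit both were counted is not given in the sources used here, so their counts are uncertain to that extent. In D4 BAT, Ly6c1 averaged 141 ± 24.1 CPM in DTR+ libraries and 72.4 ± 7.54 CPM in DTR- libraries, and Lyz1 3.97 ± 0.8 CPM and 2.15 ± 0.814 CPM in the same groups (SD, n = 4 each). By edgeR, Ly6c1 was itself called higher in DTR+ BAT at D4 (log2 fold change 0.71 ± 0.12, adjusted p = 0.00089). It was also called at D3 (0.51 ± 0.12, adjusted p = 0.033). Lyz1 was not called at D4 (0.61 ± 0.42, adjusted p = 0.38). The part of shared reads in the Ly6c2 and Lyz2 values was not tested.

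In DTR- mice, whose Foxp3+ cells lack the receptor, brown fat held far less of these transcripts than subcutaneous fat. At D4 all 10 members passed the test as lower in DTR- BAT than in DTR- SAT, with a median log2 fold change of -3.01 over the members and 0.01 over all genes. The test is edgeR's quasi-likelihood test with Benjamini-Hochberg adjustment over all genes, at an adjusted p under 0.05. The 2 tissues differ widely: 50.9% of 12310 genes were called, and 25% were lower in BAT. Plac8 stood farthest, with 0.645 ± 0.365 CPM in DTR- BAT against 53.3 ± 19.4 CPM in DTR- SAT (SD, n = 4 each), a log2 fold change of -5.80 ± 0.41 (SE). Cybb differed least, with 6.78 ± 3.3 CPM in DTR- BAT against 58.2 ± 9.43 CPM in DTR- SAT, a log2 fold change of -2.60 ± 0.30. The ranges of the 2 tissues were apart for all 10 members, as they were, in this direction, for 41.6% of genes. At D3, 9 members were called lower in DTR- BAT than in DTR- SAT, with a median of -3.07 against -0.02 over all genes, where 45.9% of 12387 genes were called and 22.9% were lower in BAT. The D3 ranges were apart for all 10 members, as they were, in this direction, for 48.7% of genes. The remaining member, Ctss, had a log2 fold change of -2.54 ± 0.77 and an adjusted p of 0.054. Fewer cells of a type and less RNA per cell cannot be told apart in bulk libraries, here and in every comparison below.

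At D4, brown fat of DTR+ mice held more of the monocyte and macrophage transcripts than that of DTR- mice. Plac8 and Ly6c2 rose most, 18.2-fold and 11.6-fold, followed by Ctss at 10.6-fold and Fcgr1 at 9.2-fold. Csf1r, the growth factor receptor of all macrophages, rose 2.12-fold. Of the 10 members, 9 passed edgeR's test as higher in DTR+ BAT, where 16.1% of 11695 genes were called and 8.73% were called higher. The median log2 fold change was 2.46 over the members and 0.02 over all genes. The CPM ranges of DTR+ and DTR- libraries were apart for all 10 members. By the same measure 21.5% of all genes had higher ranges in DTR+ BAT. The ranges are of plain CPM, whose ratios ran 0.24 above the TMM-scaled ones on the log2 scale.

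Plac8, a small cysteine-rich protein of monocytes and lymphocytes, had 5.12, 11.3, 23.8 and 19.1 CPM in the DTR+ BAT libraries at D4, against 0.6, 0.435, 1.17 and 0.371 CPM in the DTR- BAT libraries. The lowest DTR+ library lay above the highest DTR- library by several-fold. Its log2 fold change was 4.18 ± 0.52 (SE), with an adjusted p of 1e-04 by edgeR. Ly6c2, a GPI-anchored surface protein of inflammatory monocytes, had 3.58, 12.6, 28.2 and 16.6 CPM in DTR+ BAT, against 1.2, 0.869, 1.3 and 0.928 CPM in DTR- BAT. DTR+ replicate 1 was the lowest of its group for both genes and still above every DTR- library. The log2 fold change of Ly6c2 was 3.54 ± 0.55, with an adjusted p of 0.001. Fcgr1 had 5.63, 25.4, 16 and 16.3 CPM in DTR+ BAT, against 0.75, 1.45, 2.61 and 0.742 CPM in DTR- BAT. Here too DTR+ replicate 1 was low and DTR- replicate 3 was high, and the groups did not overlap. The log2 fold change of Fcgr1 was 3.20 ± 0.48, with an adjusted p of 0.00064.

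Among the effector genes, Cybb had 24.4, 57, 49.1 and 36.2 CPM in DTR+ BAT at D4, against 7.05, 7.24, 10.4 and 2.41 CPM in DTR- BAT. The groups were apart, and the log2 fold change was 2.34 ± 0.38 (adjusted p = 0.0028, edgeR). Ctss had 129, 446, 279 and 225 CPM in DTR+ BAT, against 7.8, 14.5, 52.4 and 10 CPM in DTR- BAT. DTR- replicate 3 lay several-fold above the other DTR- libraries, yet below every DTR+ library. The log2 fold change of Ctss was 3.40 ± 0.76 with an adjusted p of 0.03, and leaving out single libraries took that p as high as 0.093. Lyz2 had 344, 869, 696 and 535 CPM in DTR+ BAT, against 75.4, 81, 180 and 66.2 CPM in DTR- BAT. DTR- replicate 3 again topped its group, and the groups did not overlap. The log2 fold change of Lyz2 was 2.35 ± 0.44 (adjusted p = 0.016), and the adjusted p was 0.056 without DTR- replicate 2.

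Cd68, a lysosomal membrane glycoprotein of macrophages, had 47.4, 110, 97.6 and 74.7 CPM in DTR+ BAT at D4, against 10.3, 7.1, 24.9 and 3.71 CPM in DTR- BAT. The groups were apart, with a log2 fold change of 2.57 ± 0.58 and an adjusted p of 0.03, which rose to as much as 0.087 without single libraries. Csf1r had 50.5, 85.6, 65.1 and 51.7 CPM in DTR+ BAT, against 23.4, 29.7, 32.9 and 13.7 CPM in DTR- BAT. Its groups did not overlap either, but the lowest DTR+ library was less than 2-fold above the highest DTR- library. The log2 fold change of Csf1r was 1.08 ± 0.25 (adjusted p = 0.012). Adgre1, an adhesion receptor of mature macrophages, had 20.8, 58.5, 42.1 and 21.8 CPM in DTR+ BAT, against 2.7, 4.06, 19.8 and 4.08 CPM in DTR- BAT. DTR- replicate 3 came close to the lowest DTR+ library. Adgre1 did not pass the test, with a log2 fold change of 1.95 ± 0.73 and an adjusted p of 0.14, and it passed in edgeR without that DTR- library and in DESeq2. Ptprc had 16.4, 48, 37.1 and 41.5 CPM in DTR+ BAT, against 3.75, 9.85, 8.21 and 4.27 CPM in DTR- BAT. Its groups were apart, with a log2 fold change of 2.17 ± 0.40 and an adjusted p of 0.0049. Leaving out 1 library at a time left 6 to 10 members called, 6 without DTR- replicate 1 or without DTR- replicate 2. Without the libraries whose muscle genes summed to over 1000 CPM, 10 members were called. This cut was added after the data were seen. It took out DTR+ replicate 1, the lowest DTR+ library for every member. It also took out DTR- replicate 4 and DTR- replicate 3, the highest DTR- library for every member but Ptprc. Removing libraries nearest the other group favours calls, so the 10 calls cannot show that muscle admixture was without effect. The share of all genes called under this cut is not given.

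**Figure D1:**
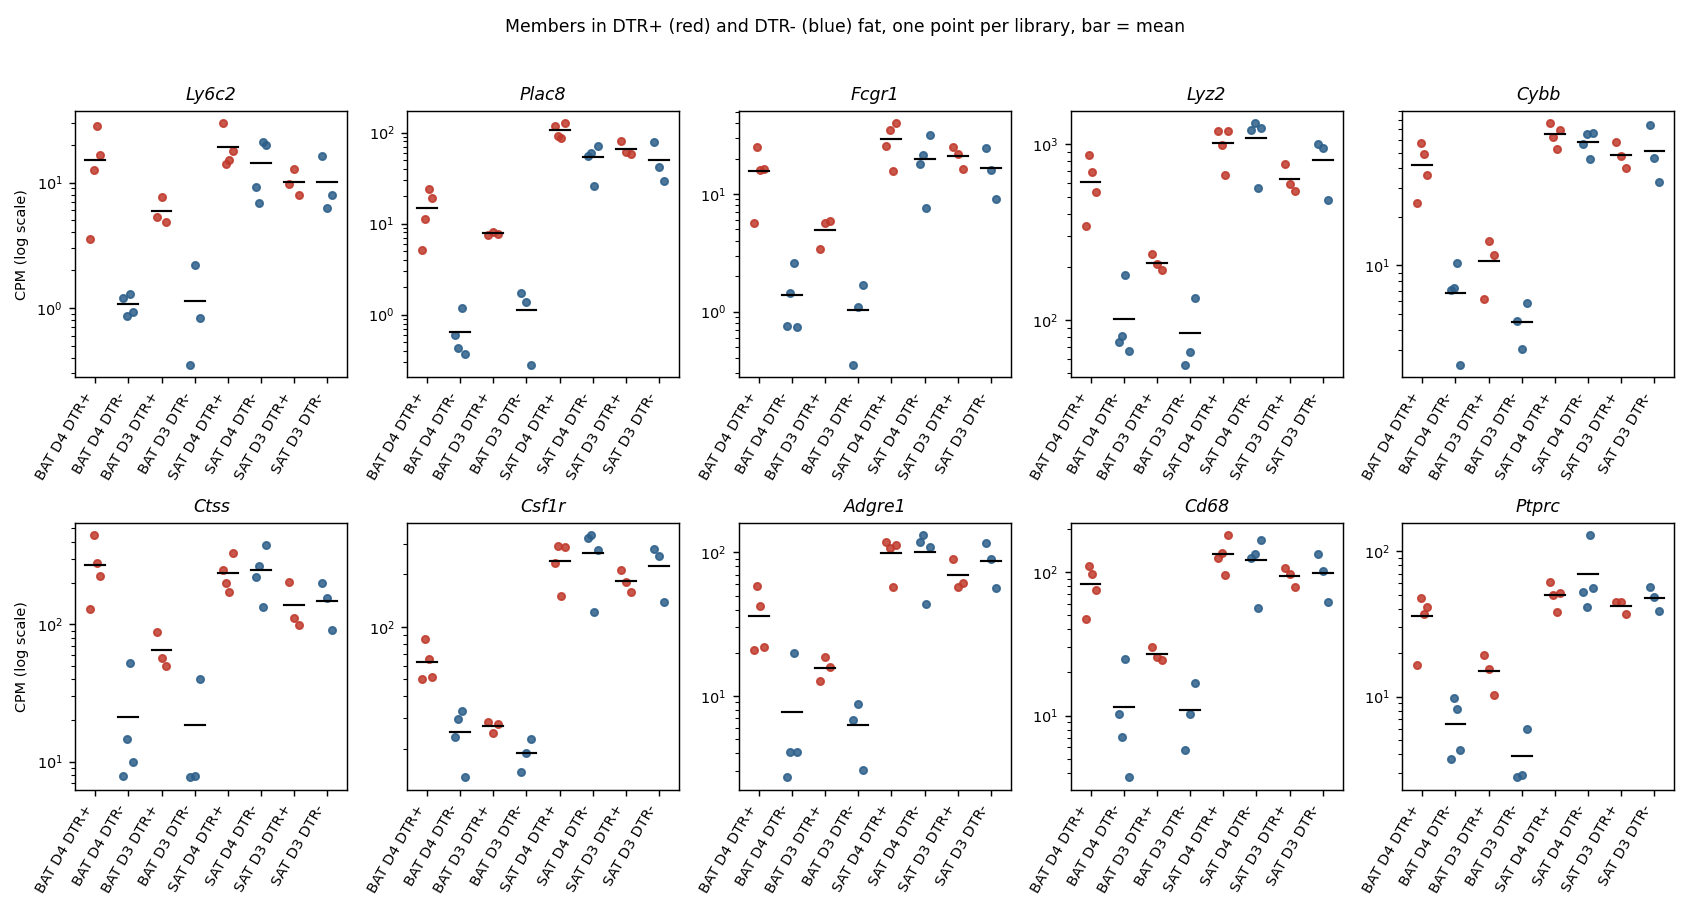
Levels of the 10 genes in whole fat, in CPM on a log axis, 1 panel per gene and 1 point per library, with DTR+ groups (red) left of DTR- groups (blue) for BAT and SAT at D4 and D3 and a bar at each group mean. In BAT at D4 the DTR+ points of every gene lie above the DTR- points, while in SAT the 2 genotypes overlap except for Plac8 at D4, where DTR+ libraries span 87.1 to 127 CPM and DTR- libraries 26 to 71.6 CPM.

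The members did not move by the same amount, which showed in counts per Csf1r count. In D4 BAT there were 6.82 to 10.7 Lyz2 counts per Csf1r count in DTR+ libraries and 2.73 to 5.49 in DTR- libraries. For Ctss the ratio was 2.55 to 5.21 in DTR+ BAT and 0.333 to 1.6 in DTR- BAT. For Plac8 it was 0.101 to 0.369 in DTR+ BAT and 0.0146 to 0.0357 in DTR- BAT. Cybb and Cd68 were also apart, at 0.483 to 0.754 and 0.939 to 1.5 in DTR+ BAT against 0.176 to 0.317 and 0.239 to 0.758 in DTR- BAT. The ratio of Adgre1 to Csf1r overlapped between the genotypes, with 0.412 to 0.683 in DTR+ BAT and 0.115 to 0.603 in DTR- BAT. So did that of Ptprc, narrowly, with 0.324 to 0.802 in DTR+ BAT and 0.16 to 0.332 in DTR- BAT. In SAT at D4 the Lyz2 ratio was 3.42 to 5.13 in DTR+ libraries and 3.75 to 4.65 in DTR- libraries, and the Ctss ratio was 0.685 to 1.15 in DTR+ libraries and 0.683 to 1.37 in DTR- libraries. Plac8 was the exception there, with 0.314 to 0.578 Plac8 counts per Csf1r count in DTR+ SAT against 0.172 to 0.259 in DTR- SAT. In SAT at D3 the Plac8 ratio was 0.34 to 0.38 in DTR+ libraries and 0.164 to 0.277 in DTR- libraries. The D3 ratios of Fcgr1 (0.103 to 0.122 against 0.0633 to 0.0883) and Cd68 (0.499 to 0.538 against 0.399 to 0.478) were also apart. The remaining D3 ratios overlapped in SAT. These ratios come from the same counts as the tests above and are given as a description. The share of all genes apart by a ratio to Csf1r was not counted. By plain CPM, 21.5% of genes had higher ranges in DTR+ BAT at D4, 2.93% in DTR+ SAT at D4 and 6.12% in DTR+ SAT at D3.

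**Figure D2:**
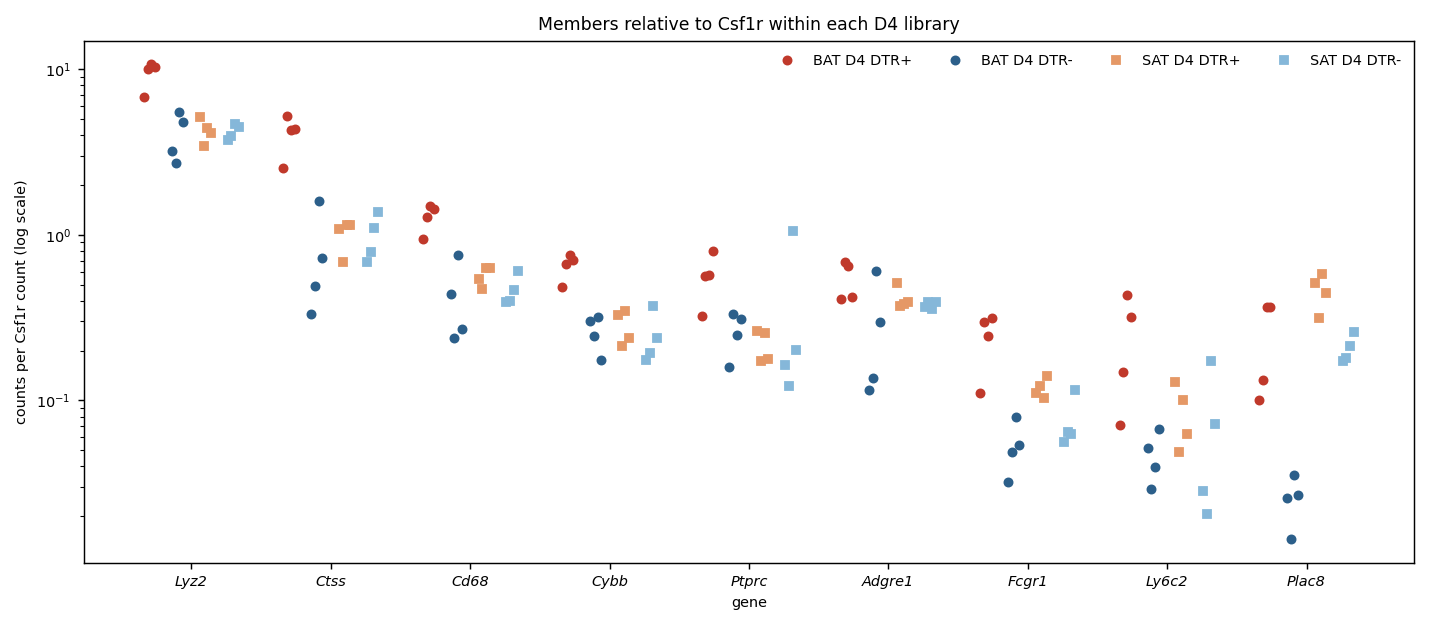
Counts of 9 genes per count of Csf1r in the same library, on a log axis, for DTR+ (red) and DTR- (blue) libraries of BAT and SAT at D4, with 1 point per library. Lyz2 lies at 6.82 to 10.7 per Csf1r count in DTR+ BAT, above the 2.73 to 5.49 of DTR- BAT, and the 2 SAT groups overlap for Lyz2 and Ctss.

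Other genes of the same pathways rose in DTR+ BAT at D4 as well. All 5 partners of Cybb in the phagocyte oxidase rose. The small GTPase Rac2 averaged 33.4 ± 10.4 CPM in DTR+ BAT and 5.45 ± 1.51 CPM in DTR- BAT (SD, n = 4 each), a log2 fold change of 2.35 ± 0.26 (adjusted p = 3.3e-05, edgeR). The membrane subunit Cyba had a log2 fold change of 2.28 ± 0.35 (adjusted p = 0.0029). Of the Fc receptors and their adaptors, 4 of 5 rose, among them the signalling chain Fcer1g at 2.18 ± 0.27 (adjusted p = 0.00039) and the adaptor Tyrobp with 74.7 ± 33 CPM in DTR+ BAT against 12.8 ± 5.27 CPM in DTR- BAT. All 5 tested genes of a list of 6 colony stimulating factor ligands and receptors rose. Csf1, the ligand of Csf1r, averaged 28 ± 5.93 CPM in DTR+ BAT and 4.52 ± 2.53 CPM in DTR- BAT (log2 fold change 2.37 ± 0.31, adjusted p = 0.00017). The shared receptor chain Csf2rb averaged 52.3 ± 12.5 CPM in DTR+ BAT and 11.4 ± 2.9 CPM in DTR- BAT (1.95 ± 0.21, adjusted p = 2.9e-05).

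Genes of monocyte recruitment followed, with 7 of 8 tested, of a list of 12, higher in DTR+ BAT. The chemokine Ccl2, which draws Ccr2+ monocytes, averaged 59.4 ± 40 CPM in DTR+ BAT and 1.51 ± 1.7 CPM in DTR- BAT, a log2 fold change of 4.95 ± 0.85 (adjusted p = 0.011, edgeR). Its receptor Ccr2 averaged 15.2 ± 4.7 CPM in DTR+ BAT and 3.84 ± 1.03 CPM in DTR- BAT (1.73 ± 0.30, adjusted p = 0.00089). The myeloid transcription factors Irf5 (2.33 ± 0.26, adjusted p = 3.3e-05), Spi1, which encodes PU.1 (2.25 ± 0.36, adjusted p = 0.00055), and Irf8 (1.82 ± 0.39, adjusted p = 0.0074) were the 3 of 8 that rose. Of the 9 lysosomal proteases and cystatins, 5 rose, with smaller log2 fold changes such as 1.03 ± 0.16 for Lgmn and 0.52 ± 0.12 for Ctsz. Among 7 tested scavenger and lysozyme relatives 4 rose, and Lgals3, galectin-3 of phagocytes, averaged 404 ± 167 CPM in DTR+ BAT and 22 ± 23 CPM in DTR- BAT (3.94 ± 0.79, adjusted p = 0.021). The markers of resident macrophages were split: of 7 tested, the complement genes C1qb (1.56 ± 0.22) and C1qa (0.76 ± 0.20) rose and the haemoglobin scavenger receptor Cd163 fell, with 1.61 ± 0.702 CPM in DTR+ BAT against 4.41 ± 1.4 CPM in DTR- BAT (-1.71 ± 0.45, adjusted p = 0.014). These lists were chosen with earlier results of these data known.

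Markers of other leukocytes moved in the same libraries, not all of them upward. The B cell gene Ighm fell, with 8.92 ± 2.93 CPM in DTR+ BAT at D4 against 16.9 ± 4.64 CPM in DTR- BAT. Its log2 fold change was -1.18 ± 0.27 (adjusted p = 0.0061, edgeR), and the CPM ranges overlapped. Cd79a, another B cell gene, was not called. The 11 T and NK cell genes summed to 22.7 to 61.9 CPM in DTR+ BAT at D4 and to 5.57 to 7.04 CPM in DTR- BAT, and all 3 of them with enough counts to test, Lck, Cd8b1 and Nkg7, rose. The 8 neutrophil genes summed to 11 to 20.8 CPM in DTR+ BAT and to 3.33 to 11.1 CPM in DTR- BAT, and 2 of 3 tested, S100a8 and S100a9, which monocytes also express, rose. Of the other neutrophil genes, Ly6g and Camp were at 0 in 3 of 4 DTR+ BAT libraries each, and Ngp was at 0 in all 4. Cxcr2 averaged 0.758 CPM in DTR+ BAT and 0.262 CPM in DTR- BAT, and Retnlg 0.746 and 0.318 CPM. Both overlapped between the genotypes at counts too low to test. Mmp9 was tested and not called (-1.40 ± 0.53, adjusted p = 0.086, edgeR). The part of these cells in the levels of Ptprc, Plac8 and the other members was not tested.

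In subcutaneous fat the same depletion moved none of the members past the test. At D4, 0 of 10 members were called in SAT by edgeR, where 0.314% of 12728 genes were called, and DESeq2 called Plac8 alone. Under other settings edgeR called 1 member: with no count filter, with the replicate number as a block, or without both SAT libraries numbered 3. The median log2 fold change was 0.07 over the members and 0.00 over all genes. Plac8 had 119, 91.4, 87.1 and 127 CPM in DTR+ SAT, against 55.2, 60.3, 26 and 71.6 CPM in DTR- SAT. All 4 DTR+ libraries lay above the DTR- libraries, as did those of 2.93% of genes. The log2 fold change of Plac8 was 1.00 ± 0.26, with an unadjusted p of 0.00309 and an adjusted p of 0.31. Lyz2 had 1190, 995, 669 and 1190 CPM in DTR+ SAT, against 1210, 1320, 566 and 1240 CPM in DTR- SAT. The 2 genotypes overlapped, and replicate 3 was the lowest of each group; it held the 2500 CPM of muscle genes in DTR+ SAT and the 234 CPM of T and NK genes in DTR- SAT. Ptprc had 61.1, 50.3, 38.3 and 51.3 CPM in DTR+ SAT, against 52.8, 41.1, 129 and 56.2 CPM in DTR- SAT, where that same DTR- replicate 3 was far above the rest. Its log2 fold change of -0.47 ± 0.33 became 0.11 without both SAT libraries numbered 3. Among the related lists, 1 gene of the 11 recruitment genes tested rose in DTR+ SAT, the chemokine Ccl12, and none of the genes for colony stimulating factors, oxidase partners, Fc receptors, proteases, transcription factors, scavengers or resident macrophages were called.

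The difference between the 2 tissues was tested directly, as the depletion effect in BAT minus that in SAT, over the same D4 libraries. The effects are log2 fold changes, so the difference is relative to the DTR- level of each tissue, which was lower in BAT. By edgeR it passed for 6 of 10 members, all of them higher, where 4.11% of 13502 genes passed and 3.06% did so in this direction. The differences in log2 fold change were 3.44 ± 0.79 for Ctss (adjusted p = 0.032), 3.14 ± 0.69 for Plac8 (0.021), 3.07 ± 0.72 for Ly6c2 (0.025), 2.60 ± 0.56 for Ptprc (0.02), 2.42 ± 0.52 for Lyz2 (0.024) and 2.15 ± 0.40 for Cybb (0.0067). Fcgr1 at 2.59 ± 0.72 (adjusted p = 0.053) and Cd68 at 2.38 ± 0.66 (adjusted p = 0.061) missed the threshold. For Csf1r the difference was 1.18 ± 0.47 (adjusted p = 0.19), and for Adgre1 it was 1.93 ± 0.80 (adjusted p = 0.21). The median over the members was 2.51, against 0.00 over all genes. Of the members that passed, Plac8 alone rose more in SAT than in BAT by mean CPM. It went from 53.3 CPM in DTR- SAT to 106 CPM in DTR+ SAT, and from 0.645 CPM in DTR- BAT to 14.8 CPM in DTR+ BAT. With the replicate number as a block 2 members were called, Cybb and Ptprc, and leaving out 1 library at a time left 2 to 9. Related genes that passed in the same direction included Csf1 (2.26 ± 0.36, adjusted p = 0.0024), Irf5 (2.12 ± 0.31, adjusted p = 0.0013), Cyba (2.07 ± 0.37, adjusted p = 0.0062) and Ccl2 (4.55 ± 0.90, adjusted p = 0.015). Summed over the members, D4 DTR+ BAT held 647 to 1720 CPM and D4 DTR- BAT 107 to 334 CPM, while D4 DTR+ SAT held 1350 to 2400 CPM and D4 DTR- SAT 1150 to 2420 CPM.

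At D3 brown fat of DTR+ mice also held more of these transcripts, with Plac8 and Ly6c2 again in front. Plac8, Ptprc and Ly6c2 were called higher in DTR+ BAT by edgeR, 3 of 10 members, where 3.52% of 11666 genes were called and 2.24% were higher. The median log2 fold change was 1.38 over the members and 0.02 over all genes. The CPM ranges lay above those of DTR- BAT for all 10 members, as they did for 25.6% of genes. Plac8 had 7.53, 8.19 and 7.71 CPM in DTR+ BAT at D3, against 1.74, 1.38 and 0.278 CPM in DTR- BAT. The DTR+ libraries were close together and well above the DTR- ones, with a log2 fold change of 2.58 ± 0.51 (adjusted p = 0.012). Ly6c2 had 5.27, 7.68 and 4.86 CPM in DTR+ BAT, against 0.348, 2.21 and 0.835 CPM in DTR- BAT. The groups did not overlap, and the log2 fold change was 2.13 ± 0.54 (adjusted p = 0.046). Ptprc had 19.4, 15.4 and 10.2 CPM in DTR+ BAT, against 2.78, 2.9 and 5.99 CPM in DTR- BAT. Its groups were also apart, with a log2 fold change of 1.73 ± 0.34 (adjusted p = 0.012).

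The other members at D3 fell short of the threshold. Fcgr1 had a log2 fold change of 2.01 ± 0.53 (adjusted p = 0.052, edgeR) and Cd68 one of 1.08 ± 0.28 (adjusted p = 0.054). Adgre1, Cybb, Lyz2 and Ctss had log2 fold changes of 1.05 to 1.61, with adjusted p-values between 0.089 and 0.38. Csf1r was nearest to no difference, with 28.4, 24.6 and 27.8 CPM in DTR+ BAT, against 14.8, 19 and 22.8 CPM in DTR- BAT. Those 2 groups were narrowly apart, and the log2 fold change was 0.31 ± 0.19 (adjusted p = 0.42). DESeq2 called 7 members. The number of all genes it called in D3 BAT is not given here, so whether 7 is many for that method was not assessed. With edgeR, leaving out 1 library at a time left 0 to 6 members: 0 without DTR+ replicate 1, 1 without DTR+ replicate 2 and 6 without DTR- replicate 3. Of the related genes, Ccl2 averaged 47.6 ± 8.24 CPM in DTR+ BAT and 3.1 ± 1.91 CPM in DTR- BAT at D3 (SD, n = 3 each), a log2 fold change of 3.73 ± 0.33 (adjusted p = 9.5e-05). Ccl7, another ligand of Ccr2, had a log2 fold change of 3.46 ± 0.38 (adjusted p = 2e-04), and 4 of the 9 recruitment genes tested rose. Csf1 (1.62 ± 0.32, adjusted p = 0.013) and Csf2rb (1.63 ± 0.22, adjusted p = 0.00084) rose too, 2 of 5 tested in their list. The 11 T and NK genes summed to 8.89 to 16.6 CPM in DTR+ BAT at D3 and to 4 to 9.88 CPM in DTR- BAT. Of them, Cd3d, Cd3g, Gzmb and Ncr1 had DTR+ ranges above the DTR- ranges at counts too low to test. Among all genes tested in D3 BAT, 25.6% had higher ranges in DTR+ libraries. The 8 neutrophil genes summed to 9.6 to 11.1 CPM in DTR+ BAT and to 3.2 to 7.04 CPM in DTR- BAT. Of these, S100a8 (1.28 ± 0.54, adjusted p = 0.23) and S100a9 (1.78 ± 0.52, adjusted p = 0.077) also had higher ranges in DTR+ BAT and were not called. The part of these cells in the levels of Ptprc and the other members was not tested. D3 and D4 were not tested against each other.

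In SAT at D3, 0 members and 0 of 12596 genes were called by edgeR, 0% of those tested. Over all genes 629 had an unadjusted p under 0.05, and DESeq2 called 19. The ranges of DTR+ and DTR- SAT overlapped for all 10 members, while 6.12% of genes had higher and 4.14% lower ranges in DTR+ SAT. The median log2 fold change was -0.09 over the members and 0.00 over all genes. The difference between the tissues at D3 passed edgeR's test for 0 members and for 0.0675% of 13325 genes. It was 1.90 ± 0.36 for Ptprc, whose unadjusted p was 5.25e-05 and whose adjusted p was 0.054. For this difference between the tissues DESeq2 called 2 members and 142 genes.

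Under CL, all 10 members were higher in DTR+ than in DTR- BAT. Ctss led, followed by Cybb and Ly6c2, and Csf1r again differed least. By edgeR 10 of 10 passed, where 7.72% of 12048 genes were called and 4.51% were higher. Over the members the median log2 fold change was 2.80, against 0.01 over all genes. The CPM ranges were apart for 9 members, as they were, in this direction, for 18.2% of genes. Ctss had 345, 276 and 316 CPM in CL DTR+ BAT, against 10.6, 9.46 and 16.4 CPM in CL DTR- BAT. Every DTR+ library was far above every DTR- library, a 24.4-fold difference (log2 fold change 4.61 ± 0.49, adjusted p = 0.0012). Cybb had 33.5, 54.8 and 47.4 CPM in CL DTR+ BAT, against 0.998, 4.53 and 3.22 CPM in CL DTR- BAT. Its groups were likewise far apart, with a log2 fold change of 3.82 ± 0.42 (adjusted p = 0.00029). Lyz2 had 514, 577 and 636 CPM in CL DTR+ BAT, against 69.5, 81.2 and 62.5 CPM in CL DTR- BAT. The libraries of each group were close to each other, with a log2 fold change of 2.98 ± 0.30 (adjusted p = 0.00028).

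Ly6c2 and Plac8 did the same under CL. Ly6c2 had 11, 15.7 and 10.9 CPM in CL DTR+ BAT, against 0.333, 0.788 and 1.25 CPM in CL DTR- BAT (log2 fold change 3.75 ± 0.85, adjusted p = 0.019, edgeR). Plac8 had 22.3, 23.7 and 13.6 CPM in CL DTR+ BAT, against 0.665, 2.17 and 5.09 CPM in CL DTR- BAT (2.72 ± 0.64, adjusted p = 0.022). For both, every DTR+ library exceeded every DTR- one. Fcgr1, Adgre1, Cd68 and Ptprc had log2 fold changes of 2.57 to 2.87, with adjusted p-values of 0.0019 to 0.019 and no overlap. Csf1r had 20.7, 53.7 and 44.9 CPM in CL DTR+ BAT, against 22.9, 15.4 and 8.21 CPM in CL DTR- BAT. DTR+ replicate 1 lay below DTR- replicate 1, and the log2 fold change of 1.33 ± 0.39 had an adjusted p of 0.049, which was above 0.05 with the replicate number as a block (0.077) or over the 2 groups alone (0.063). Without CL DTR- replicate 2, Ly6c2, Plac8, Fcgr1 and Csf1r were not called.

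Related lists moved in part under CL. Of 5 Fc receptor genes 4 rose in CL DTR+ BAT, of 7 scavenger and lysozyme relatives 6, of 12 recruitment genes 5, of 9 protease genes 4, of 8 transcription factors 3 and of 5 oxidase partners 2. The complement gene C1qb averaged 162 ± 17.1 CPM in CL DTR+ BAT and 37 ± 7.63 CPM in CL DTR- BAT (2.08 ± 0.32, adjusted p = 0.0029, edgeR). Trem2, a lipid-sensing receptor of macrophages, averaged 18.4 ± 2.24 CPM in CL DTR+ BAT and 0.585 ± 0.25 CPM in CL DTR- BAT (4.76 ± 0.83, adjusted p = 0.0055). None of the 5 tested genes of colony stimulating factors were called. The 11 T and NK genes summed to 70.3 to 86.9 CPM in CL DTR+ BAT and to 2.66 to 5.12 CPM in CL DTR- BAT, and 5 of 11 rose. Their part in the member levels was not tested.

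Among DTR- mice several members were lower with CL than with PBS. By edgeR 6 of 10 were called lower and none higher, where 28.1% of 12048 genes were called and 11.8% were lower. Over the members the median log2 fold change was -1.92, against -0.03 over all genes. The CL ranges lay below the PBS ranges for 6 members, as they did for 24.2% of genes. Lyz2 had 69.5, 81.2 and 62.5 CPM in CL DTR- BAT, against 288, 134 and 361 CPM in PBS DTR- BAT. All CL libraries were below all PBS libraries, with a log2 fold change of -1.82 ± 0.29 (adjusted p = 0.00048). Ctss had 10.6, 9.46 and 16.4 CPM in CL DTR- BAT, against 95.8, 25.2 and 104 CPM in PBS DTR- BAT. The groups were apart, though PBS replicate 2 was well below the other PBS libraries, and the log2 fold change was -2.53 ± 0.46 (adjusted p = 0.003). Adgre1 had 5.32, 7.69 and 2.81 CPM in CL DTR- BAT, against 27.1, 12.7 and 36.1 CPM in PBS DTR- BAT. It too was apart (-2.25 ± 0.46, adjusted p = 0.0028), as were Ptprc (-2.05 ± 0.48, adjusted p = 0.0072) and Cybb (-2.02 ± 0.41, adjusted p = 0.0024).

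Ly6c2 behaved differently in that comparison, with 0.333, 0.788 and 1.25 CPM in CL DTR- BAT, against 2.23, 0.636 and 11.4 CPM in PBS DTR- BAT. The high mean of the PBS group came from replicate 3, and the groups overlapped. Its log2 fold change of -2.45 ± 0.84 (adjusted p = 0.044, edgeR) became -0.59 (adjusted p = 0.6) without that library. Cd68 (-1.07 ± 0.39, adjusted p = 0.053), Csf1r (-0.86 ± 0.38, adjusted p = 0.11), Fcgr1 (-0.73 ± 0.61, adjusted p = 0.4) and Plac8 (-0.66 ± 0.64, adjusted p = 0.47) were not called. The 11 T and NK genes summed to 2.66 to 5.12 CPM in CL DTR- BAT and to 8.48, 18.2 and 148 CPM in PBS DTR- BAT, and 8 of 11 were lower with CL. Their part in the lower members was not tested. Of the 5 Fc receptor genes 4 were lower with CL, while Csf2rb was higher, with 19.6 ± 4.66 CPM in CL DTR- BAT against 5.65 ± 3.04 CPM in PBS DTR- BAT (1.90 ± 0.42, adjusted p = 0.0043). The CL DTR- libraries serve in both CL comparisons, as the lower side of each.

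**Figure D3:**
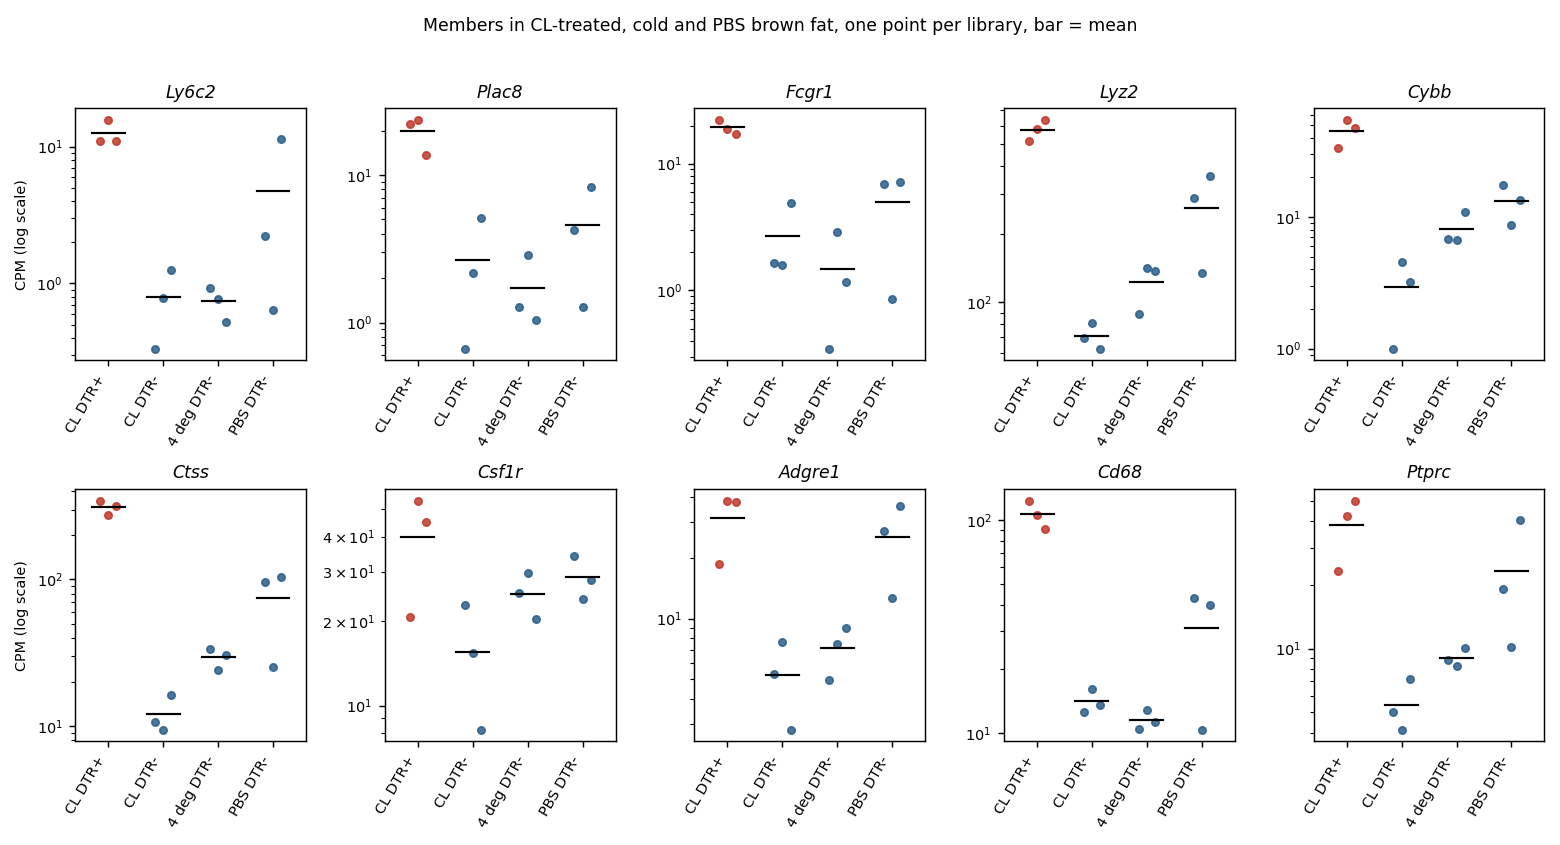
Levels of the 10 genes in BAT of CL DTR+, CL DTR-, 4 °C and PBS DTR- mice, in CPM on a log axis, with 1 panel per gene, 1 point per library (3 per group) and a bar at each mean. CL DTR+ libraries lie above CL DTR- libraries except for Csf1r, and PBS DTR- libraries spread widely, from 134 to 361 CPM for Lyz2.

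Blocking interferon-gamma was compared with an isotype antibody in DTR+ mice given DT. A single member, Ly6c2, was lower with aIFNg, at 2.28 ± 0.31 CPM against 9.1 ± 1.7 CPM with isotype (SD, n = 3 each). By edgeR 1 of 10 members passed, where 0.541% of 12017 genes were called and 0.508% were lower. The median log2 fold change was -0.79 over the members and 0.01 over all genes, and all 10 members had a negative log2 fold change. Ly6c2 had 2.25, 2.61 and 1.99 CPM with aIFNg, against 7.2, 9.62 and 10.5 CPM with isotype. The groups were well apart, with a log2 fold change of -1.94 ± 0.42 and an adjusted p of 0.041. With any 1 of the 6 libraries left out the fold change stayed between -2.11 and -1.81, but the adjusted p lay between 0.058 and 0.16, above the threshold each time.

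Besides Ly6c2, 3 members had aIFNg ranges below the isotype ranges, as did 8.3% of genes. Plac8 had 4.02, 3.01 and 2.65 CPM with aIFNg, against 10.3, 7.65 and 9.07 CPM with isotype (log2 fold change -1.43 ± 0.39, adjusted p = 0.17, edgeR). Fcgr1 had 10.3, 6.01 and 4.64 CPM with aIFNg, against 21, 11.3 and 12.8 CPM with isotype (-1.06 ± 0.34, adjusted p = 0.31). Ptprc had 15.6, 25.5 and 21 CPM with aIFNg, against 65.2, 43.7 and 28.6 CPM with isotype (-1.11 ± 0.27, adjusted p = 0.14). These 3 were not called by edgeR, and DESeq2 called Ptprc beside Ly6c2. Lyz2 had 517, 603 and 416 CPM with aIFNg, against 887, 640 and 455 CPM with isotype, and the groups overlapped (-0.32 ± 0.23, adjusted p = 0.81). Cybb, Ctss, Csf1r, Adgre1 and Cd68 overlapped as well, with log2 fold changes of -0.79 to -0.25.

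Relative to Lyz2, Ly6c2 and Plac8 were also lower with aIFNg. There were 0.435, 0.432 and 0.478 Ly6c2 counts per 100 Lyz2 counts with aIFNg, against 0.812, 1.5 and 2.31 with isotype. The aIFNg libraries were close together and below all isotype libraries. For Plac8 there were 0.778, 0.499 and 0.637 counts per 100 Lyz2 counts with aIFNg, against 1.16, 1.19 and 2 with isotype, likewise apart. Those of Fcgr1 overlapped, with 1.99, 0.998 and 1.11 with aIFNg against 2.37, 1.77 and 2.81 with isotype. Ratios to Lyz2 were taken for these members alone, after their CPM ranges were seen to be apart. They come from the same counts as the test and are given as a description. The share of all genes apart by this ratio was not counted, and by plain CPM 8.3% of genes had lower ranges with aIFNg. Ly6c1, the near-identical neighbour expressed in endothelium, had 108, 118 and 93.7 CPM with aIFNg, against 154, 148 and 144 CPM with isotype. Its ranges were apart in the same direction as those of Ly6c2, and it was not called (log2 fold change -0.43, adjusted p = 0.18, edgeR). How far reads that fit both genes entered the Ly6c2 values was not tested. The T and NK genes summed to 12.8 to 28.5 CPM with aIFNg and to 30.6 to 51.6 CPM with isotype, and their part was not tested. No gene of the related lists was called, 0 of 11 recruitment genes and 0 of 5 Fc receptor genes among them.

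**Figure D4:**
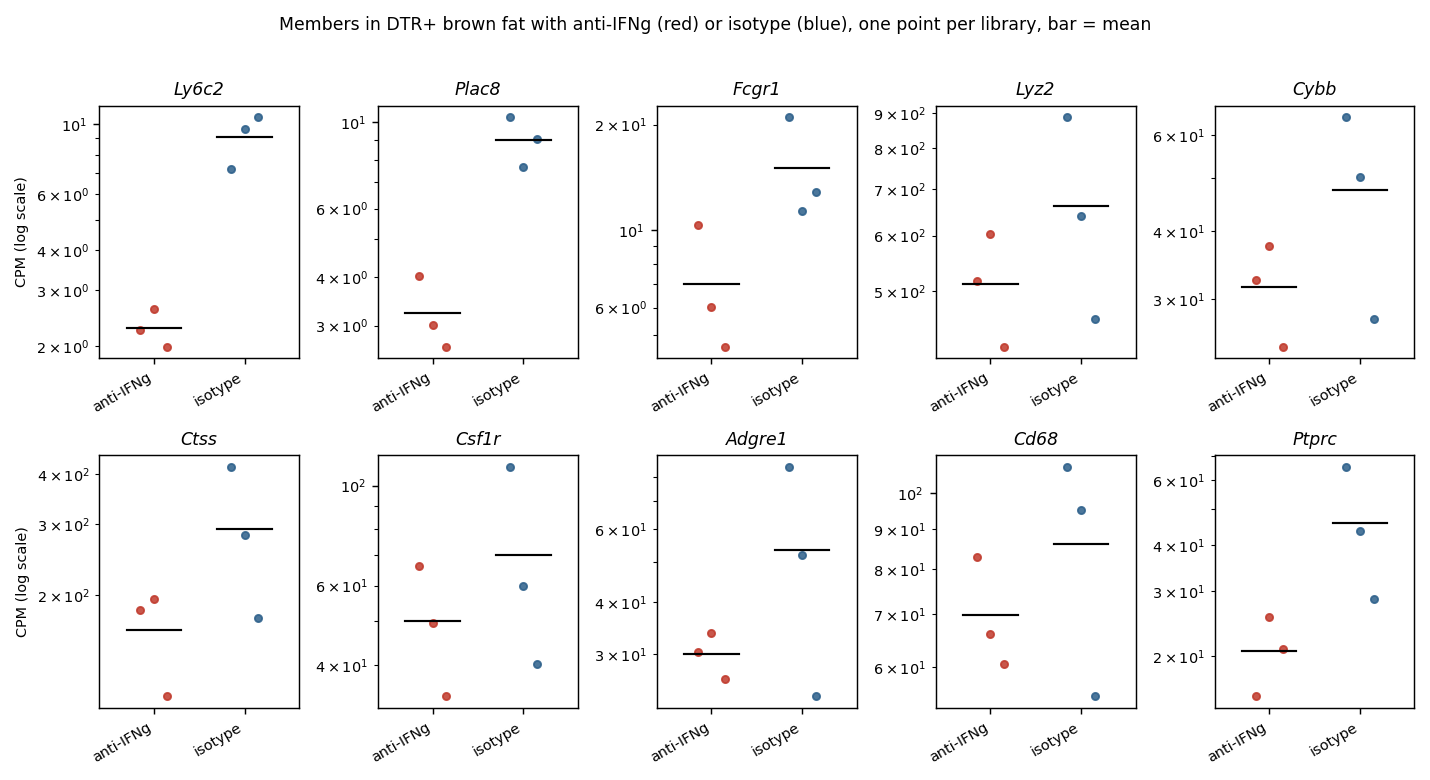
Levels of the 10 genes in BAT of DTR+ mice given DT with aIFNg (red, left) or isotype antibody (blue, right), in CPM on a log axis, with 1 point per library (3 per group) and a bar at each mean. Ly6c2, Plac8, Fcgr1 and Ptprc show no overlap, with Ly6c2 at 1.99 to 2.61 CPM against 7.2 to 10.5 CPM, and the other 6 genes overlap.

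With PC61 in wild-type mice no member was called against the isotype antibody. Ly6c2 and Plac8 had too few counts to test, and 0 of the other 8 passed edgeR's or DESeq2's test, where edgeR called 0.651% of 11513 genes. Lyz2 had 70.8, 47.9 and 61.5 CPM with PC61, against 50.7, 38.8 and 39 CPM with isotype. The groups overlapped slightly, with a log2 fold change of 0.38 ± 0.17, an unadjusted p of 0.0442 and an adjusted p of 0.44. Ctss had 12.7, 7.33 and 12.3 CPM with PC61, against 7.55, 2.69 and 4.4 CPM with isotype. PC61 replicate 2, the library with 6290 CPM of muscle genes, was the lowest of its group for both, and the log2 fold change of Ctss was 1.03 ± 0.39 (unadjusted p 0.0196, adjusted p = 0.33). These were the 2 members with an unadjusted p under 0.05. All 10 members had overlapping ranges, while 13.8% of genes had higher and 4.59% lower ranges with PC61. The median over the 8 members was 0.48, against 0.02 over all genes. Summed, the members held 85 to 138 CPM with PC61 and 67.1 to 98.5 CPM with isotype.

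At 4 °C, 1 of 9 tested members was lower than in the PBS DTR- libraries, where edgeR called 8.66% of 12329 genes and 3.8% as lower. That member was Adgre1, with 4.97, 7.51 and 8.97 CPM at 4 °C, against 27.1, 12.7 and 36.1 CPM with PBS. The groups were apart, with a log2 fold change of -1.90 ± 0.39 (adjusted p = 0.013). With the D3 DTR- libraries as the controls instead, the fold change of Adgre1 was -0.02 (adjusted p = 0.98) and no member was called. With those controls 6 members turned positive, at 1.03 for Ptprc, 0.67 for Cybb, 0.51 for Ctss, 0.40 for Plac8, 0.34 for Lyz2 and 0.22 for Csf1r on the log2 scale. Against PBS, Lyz2 had 89.1, 142 and 137 CPM at 4 °C, against 288, 134 and 361 CPM with PBS, where PBS replicate 2 lay inside the 4 °C range (-1.16 ± 0.33, adjusted p = 0.063). Ptprc (-1.45 ± 0.44, adjusted p = 0.069) was the other member whose ranges were apart, as they were, in this direction, for 12% of genes. The median over the 9 members was -1.45, against 0.00 over all genes, and DESeq2 called 5 members. The PBS DTR- libraries are the control of both the CL and the 4 °C comparison, so their high values enter both. The 4 °C libraries also differ from them in that their labels name no DT, which cannot be told apart from the cold.

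**Figure D5:**
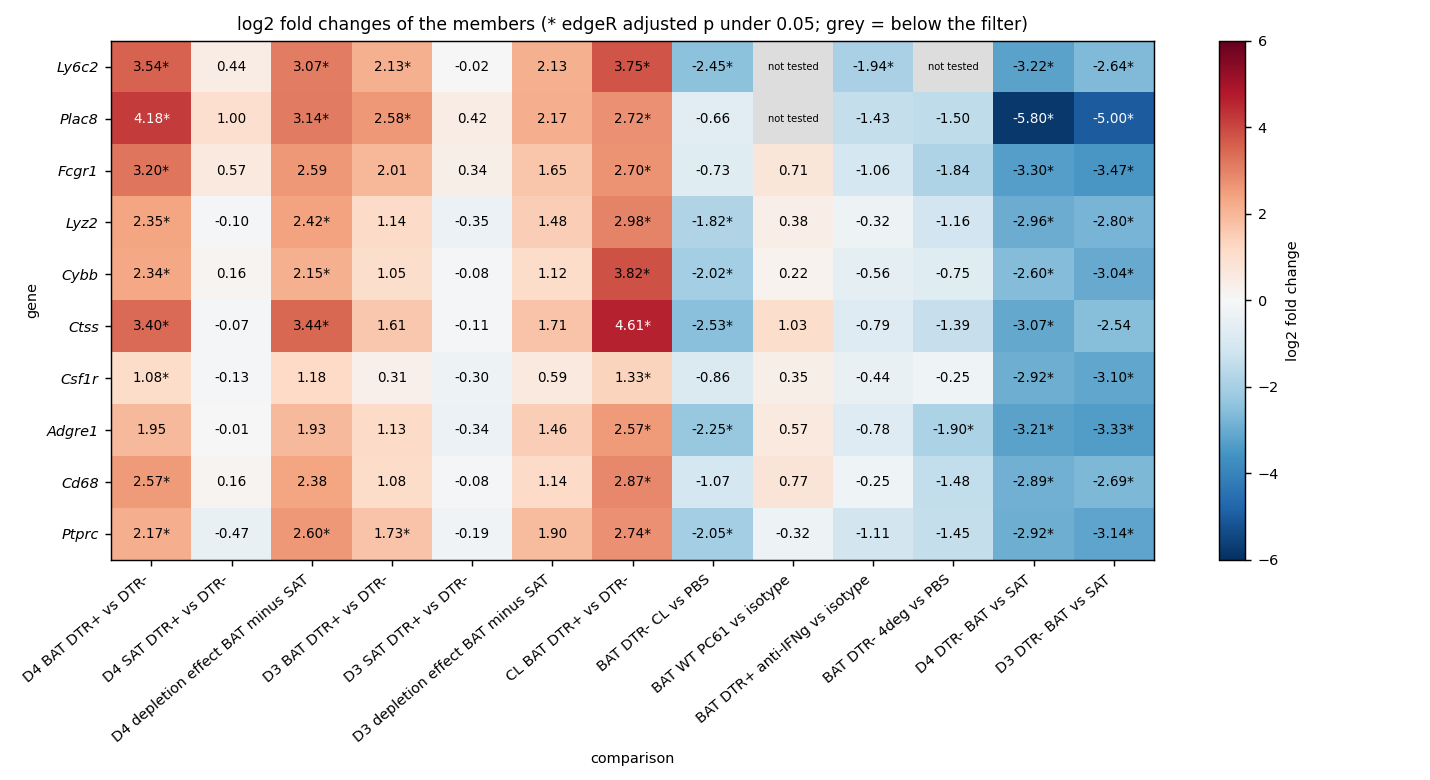
Log2 fold changes of the 10 genes in 13 comparisons, as a colour map with each value printed, a star where edgeR's adjusted p was under 0.05 and grey where a gene was not tested. D4 BAT holds 9 stars and CL DTR+ against DTR- BAT 10, D4 and D3 SAT hold none, and Csf1r has the smallest value in each column that sets DTR+ against DTR- BAT.

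Across the 38 BAT libraries the members rose and fell together. Over their 45 pairs the median Pearson r of log2 CPM was 0.833, from 0.549 for Plac8 with Csf1r to 0.984 for Lyz2 with Ctss. Lyz2 followed the mean of the other 9 most closely, with r = 0.978, followed by Ctss at 0.968 and Cd68 at 0.947, while Plac8 had 0.831 and Csf1r 0.8. After the group means were taken out, Lyz2 still had 0.897 and Cd68 0.789, and Csf1r and Plac8 had 0.392 and 0.365. The libraries share groups and differ in depth and in admixed tissue, so these values describe how the members tracked each other and were not tested. Of 9558 genes with a mean of at least 5 CPM that are no members, the 5 whose log2 CPM tracked the members' mean most closely were Tyrobp (r = 0.968), Fcer1g (0.964), Cd53 (0.964), Coro1a (0.962) and Lcp1 (0.96), over the same 38 libraries.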

How the data were processed

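Whole fat and sorted cells were profiled by Smart-seq2 with oligo(dT) priming and Nextera XT tagmentation, from 2 ng of RNA for whole fat, per the labels' protocols. The authors deposited raw counts per gene for 60 libraries. STAR 2.7.3a, featureCounts and the build mm10 are named in the submitters' processing notes, and the annotation, the strand setting and the treatment of multi-mapping reads were not given in the sources used here. No value column was left unmapped (0 columns).

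The 52 whole-fat libraries were analysed, with totals of 3007241 to 9673342 counts. The 8 libraries of sorted Treg cells entered no test. Each comparison was fitted across all genes with edgeR 4.0.16 in R 4.3.3: filterByExpr, TMM scaling, robust quasi-likelihood F test and Benjamini-Hochberg adjustment over all genes tested, at 0.05. Fits held the 2 groups compared. The interaction fits held 4 groups, and the 2 CL comparisons shared a fit over CL DTR+, CL DTR- and PBS DTR-. The log2 fold changes were computed here from the deposited counts and are TMM-scaled. CPM are plain, and SE is the log2 fold change over the root of F. Plain CPM ran above TMM by a median log2 of 0.24 in the D4 BAT comparison, 0.19 in D3 BAT and 0.1 with PC61, and by -0.46 and -0.44 for D4 and D3 BAT against SAT. Correlations used log2 CPM with a prior count of 2. Some promoter motifs are not reported here. The code was tested on simulated data with 200 changed genes.

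No 2 replicates were near-copies: over 60 pairs the chi-square per degree of freedom was 7.14 to 37.6. Deviations of same-numbered libraries correlated at -0.22 to 0.163, and in no comparison were all over 0.1, so the numbers were not taken to pair libraries. Alternatives were DESeq2 1.42.0, RLE scaling, no count filter, the replicate block, other groups in the fit, other controls and each library left out. Exclusions of libraries rich in T cell or muscle genes were added after the data were seen. The members and lists were chosen with earlier results of these data known. The 10 members are always named. Of the other lists up to 4 called genes per comparison are named by p, and lists with 5 or fewer calls may be named in full.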

Additional observations from a re-analysis of the deposited data

Results flagged for a closer look

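Of 40 sets of 4 libraries (4 groups by 10 members), 5 held a library far from the rest by Dixon's test at the 95% level, which chance alone gives in about 1 set in 20. Replicate 3 of D4 DTR- BAT did so for Lyz2 with 180 CPM, for Ctss with 52.4 CPM and for Adgre1 with 19.8 CPM, in each case as the highest of its group. Replicate 3 of D4 DTR- SAT stood lowest for Lyz2 with 566 CPM, and replicate 3 of D4 DTR+ SAT stood lowest for Adgre1 with 57.4 CPM. The 6 muscle genes summed to 1950 CPM in that DTR- BAT library and to 2500 CPM in that DTR+ SAT library, and the 11 T and NK genes to 234 CPM in that DTR- SAT library. Their part in these values was not tested.

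The effect of depletion differed between BAT and SAT at D4 by the interaction test of edgeR for 6 members. The differences in log2 fold change, BAT minus SAT, were 3.07 for Ly6c2, 3.14 for Plac8, 2.42 for Lyz2, 2.15 for Cybb, 3.44 for Ctss and 2.60 for Ptprc.

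The members were also counted in the 8 libraries of sorted Treg cells from BAT, SAT and spleen, which no comparison uses. Summed over them, Ptprc had 85581 counts, Ctss 10845, Cybb 1772, Csf1r 421, Ly6c2 366, Lyz2 338, Cd68 295, Plac8 136, Adgre1 83 and Fcgr1 10. The sort gate kept CD4+ T cells. In Treg cells of BAT, SAT and spleen Ctss averaged 195, 194 and 371 CPM, against 270 CPM in whole D4 DTR+ BAT. Cybb averaged 21.4, 32.9 and 64.4 CPM in the sorted cells, Ly6c2 5.26, 16.8 and 3.58 CPM, and Lyz2 11.9, 5.3 and 8.67 CPM. In whole D4 DTR+ BAT these 3 averaged 41.7, 15.3 and 611 CPM. The source of the member transcripts in the sorted cells was not tested.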

How the results depend on the processing

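Values named in this paragraph are numbers of genes or members called, unless given as log2 fold changes. With DESeq2 the genes called were 93 in D4 SAT, 982 for the D4 difference between tissues, 19 in D3 SAT, 142 for the D3 difference, 1581 under CL, 231 with PC61 and 1603 at 4 °C. The members called with it were 1 in D4 SAT, 7 in D3 BAT, 2 for the D3 difference, 2 with aIFNg and 5 at 4 °C. With no count filter the genes were 155, 887, 788 (D3 BAT), 72, 273, 1552, 347, 172 (aIFNg) and 1744, and the members 1 in D4 SAT, 7 in D3 BAT, 6 for the D3 difference, 3 with aIFNg and 5 at 4 °C. With the replicate block the genes were 11 in D3 SAT, 5 for the D3 difference and 658 at 4 °C, and the members 1 in D4 SAT and 2 for the D4 difference; no other count of calls moved by more than 1.5 times. The replicate numbers pair nothing by the labels or by the correlations. No paired analysis was possible for aIFNg because the groups share only 1 number. The fit over 4 groups gave 3 genes in D3 SAT. Without both SAT libraries numbered 3, D4 SAT gave 71 genes and 1 member. With D3 DTR- controls, 4 °C gave 2724 genes and 0 members.

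With each library left out in turn, the genes called ran from 1361 to 1879 in D4 BAT (members 6 to 10), 23 to 52 in D4 SAT (0 to 1), 309 to 679 for the D4 difference (2 to 9), 118 to 391 in D3 BAT (0 to 6), 0 to 10 in D3 SAT, 4 to 63 for the D3 difference (0 to 2), 310 to 954 under CL (6 to 9), 2460 to 2931 for CL against PBS (5 to 7), 11 to 100 with PC61, 40 to 61 with aIFNg (0 to 2) and 499 to 1046 at 4 °C (0 to 5).

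Signs turned mostly among values near 0. The log2 fold changes without single libraries ran in D4 SAT from -0.27 to 0.17 for Adgre1, -0.32 to 0.046 for Lyz2, -0.37 to 0.035 for Csf1r, -0.27 to 0.18 for Ctss, -0.081 to 0.34 for Cd68 and -0.64 to 0.01 for Ptprc. In D3 SAT they ran from -0.27 to 0.46 for Ly6c2, -0.31 to 0.27 for Cybb, -0.49 to 0.14 for Ctss and -0.31 to 0.18 for Cd68. They ran from -1.58 to 0.19 for Plac8 in CL against PBS, -0.30 to 0.59 for Cybb with PC61 and -0.70 to 0.013 for Csf1r with aIFNg. The block gave 0.049 for Adgre1 in D4 SAT and 0.041 for Ly6c2 in D3 SAT, and leaving out both SAT libraries numbered 3 gave 0.11 for Ptprc. With D3 DTR- controls the 4 °C values were 0.40 for Plac8, 0.34 for Lyz2, 0.67 for Cybb, 0.51 for Ctss, 0.22 for Csf1r and 1.03 for Ptprc. Over all single-member values under the alternatives, 1405 kept direction and call, 86 lost the call, 71 gained it and 35 turned sign. The causes were not tested. Depth limits Ly6c2, Plac8 and Fcgr1 in DTR- BAT, where single libraries held few counts.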
